A study of Mus musculus with 15 samples.

Results

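The pericentral hepatocyte genes described here are Glul, Oat, Slc1a2, Rhbg, Lgr5, Axin2, Tbx3 and Rgn, 8 genes that mark the liver cells around the central vein. They were chosen by gene symbol, and every RefSeq transcript with such a symbol was taken, which gave 11 of the 28167 transcripts in the count tables and 8 of the 20192 genes that could be named. Slc1a2 has 3 of these transcripts, Tbx3 has 2 and each other gene has 1. Ribosome-protected mRNA fragments (footprints, the short stretches of mRNA that a ribosome shields from digestion) were sequenced from whole liver of wild-type male C57BL/6N mice aged 8 to 10 weeks. The mice were kept for 2 weeks in 12 h of light and 12 h of dark, moved to constant darkness and, from 24 h later, killed at intervals of 4 h. The times are given as circadian time in h, CT0 for the first and CT24 for the last. All groups had the same genotype and treatment and differed only in time, with 2 mice and so 2 libraries at each of the 7 times.

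The liver lobule is zoned: blood enters at the portal tracts, where hepatocytes make urea from ammonia, and leaves through the central vein. There a thin sleeve of hepatocytes takes up the ammonium and glutamate that remain and fixes them as glutamine. Wnt ligands and R-spondins from endothelial cells of the central vein keep β-catenin active in this sleeve, and most of the 8 genes are known as targets of that pathway. Glul makes glutamine from glutamate and ammonia, Oat converts ornithine toward glutamate, Slc1a2 imports glutamate across the plasma membrane and Rhbg carries ammonium. Lgr5 is a receptor for R-spondins, Axin2 is a negative feedback component of the Wnt pathway, Tbx3 is a T-box transcription factor, and Rgn (regucalcin) is a calcium-binding protein that acts as a gluconolactonase. In whole liver, fewer cells of a type and fewer footprints per cell cannot be told apart, and footprint counts alone do not separate the amount of an mRNA from its translation.

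The total count per library ranged from 40593197 to 90458783, and from 42.1% to 70.7% of it lay on 21 transcripts of the Mup family of urinary proteins, so that a gene's share of the total moves with the Mup share. Values are therefore given as counts per 1000000 after TMM scaling (TMM CPM), which sets the libraries level on the bulk of their transcripts. TMM and total-count scaling differed by a factor whose log2 ran from -0.44 to 0.55 between libraries. In CT16 replicate 2 all counts above 0 were even numbers, so each read may have been counted 2 times. Its counts were used as deposited, also in read totals and limits for 0 reads, and with them halved an edgeR fit of a 24 h cosine to each transcript still called 3 member transcripts, those of Slc1a2, and 1942 of all transcripts. The library CT20 replicate 2 held footprints of pancreatic acinar genes, with a summed level of 4133 TMM CPM against 2.55 to 80.9 TMM CPM in the other libraries. All 12 hepatocyte markers, among them albumin, were present, with a sum of 41180 to 55976 TMM CPM. The 12 liver endothelial markers summed to 183 to 306 TMM CPM, the 12 Kupffer cell markers to 135 to 224 TMM CPM, the 12 stellate cell markers to 131 to 217 TMM CPM and the 9 cholangiocyte markers to 12.8 to 31.2 TMM CPM. Of the 7 erythroid markers found in the files the sum was 54.9 to 115 TMM CPM, 8 of 12 small intestine markers were at 0 in every library, and the 10 kidney markers had at most 10 reads together in a library.

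Per length of coding sequence (CDS), the 8 genes spanned about 3 orders of magnitude. CDS density is given as RPKM (total-count CPM, divided by the CDS length in kilobases), as mean ± SD over the 14 libraries. Rgn was highest at 440 ± 94.5 RPKM (SD, n = 14), followed by Oat at 216 ± 41.7 RPKM and Glul at 114 ± 23.4 RPKM. These 3 genes ranked 99, 199 and 380 among 11736 genes. Slc1a2 stood lower, at 28.2 ± 9.11 RPKM, which is rank 1302. The transcription factor Tbx3 had 4.76 ± 1.76 RPKM and the ammonium carrier Rhbg 4.31 ± 1.40 RPKM. Both genes named as Wnt regulators came last, Lgr5 with 0.949 ± 0.489 RPKM and Axin2 with 0.368 ± 0.174 RPKM.

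**Figure D1:**
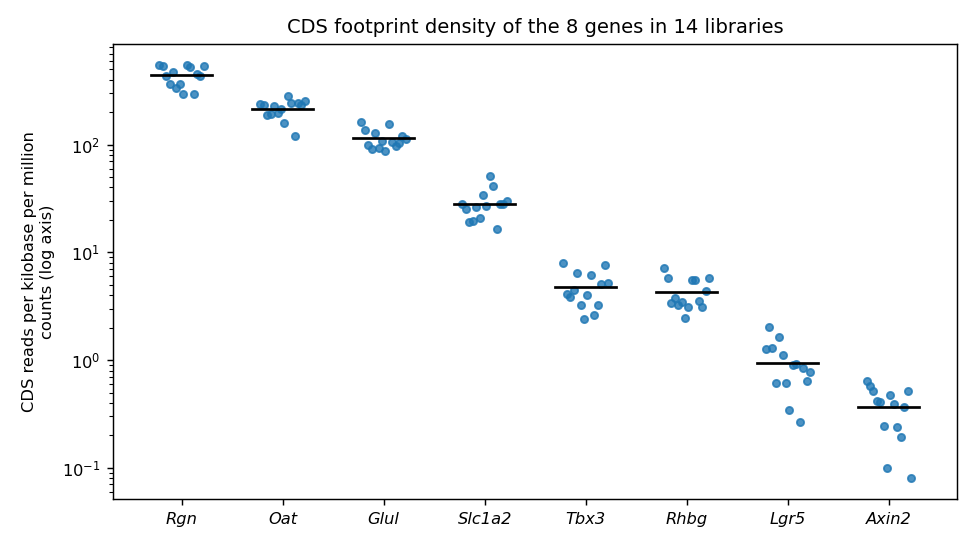
CDS footprint density of the 8 genes, in RPKM on a log axis; each point is 1 of 14 libraries and each bar is the mean. Rgn lies highest at 440 and Axin2 lowest at 0.368, and the points of Tbx3 and Rhbg overlap.

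Within a library, neighbours in this order differed by the mean ± SD of their log2 ratio, with no test. Rgn exceeded Oat in 14 of 14 libraries, by 1.02 ± 0.17 on the log2 scale, and Oat exceeded Glul in 14 of 14, by 0.91 ± 0.26. Glul exceeded Slc1a2 by 2.06 ± 0.38 and Slc1a2 exceeded Tbx3 by 2.60 ± 0.65, again in 14 of 14 libraries each. Tbx3 and Rhbg did not differ beyond their spread, with a log2 ratio of 0.12 ± 0.53 and Tbx3 higher in 8 of 14 libraries. Rhbg exceeded Lgr5 in 14 of 14 libraries, by 2.31 ± 0.76, and Lgr5 exceeded Axin2 in 13 of 14, by 1.39 ± 1.00. The order was the same with TMM library sizes. With reads and lengths of the whole transcript, Tbx3 and Rhbg changed places, with Tbx3 higher in 4 of 14 libraries.

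Over the circadian day, 1 of the 8 genes changed by the test used here. A cosine with a period of 24 h was fitted to the counts of all 17299 transcripts whose mean count was 10 or more (edgeR quasi-likelihood F test, call at a Benjamini-Hochberg adjusted p under 0.05), and all 11 member transcripts passed this filter. The fit called 11.3% of all transcripts rhythmic (1947) and 3 of the 11 member transcripts, and these 3 are the transcripts of Slc1a2. They share nearly all their CDS and therefore nearly all their reads, so they stand for 1 gene of 8. The peak-to-trough span of the fitted cosine, its height from lowest to highest point, had a median of 0.44 on the log2 scale over all transcripts. Of the member genes, Slc1a2 (0.94), Lgr5 (1.02) and Axin2 (0.71) were above that median, while Tbx3 (0.39), Oat (0.32), Glul (0.27), Rhbg (0.26) and Rgn (0.11) were below it.

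**Figure D2:**
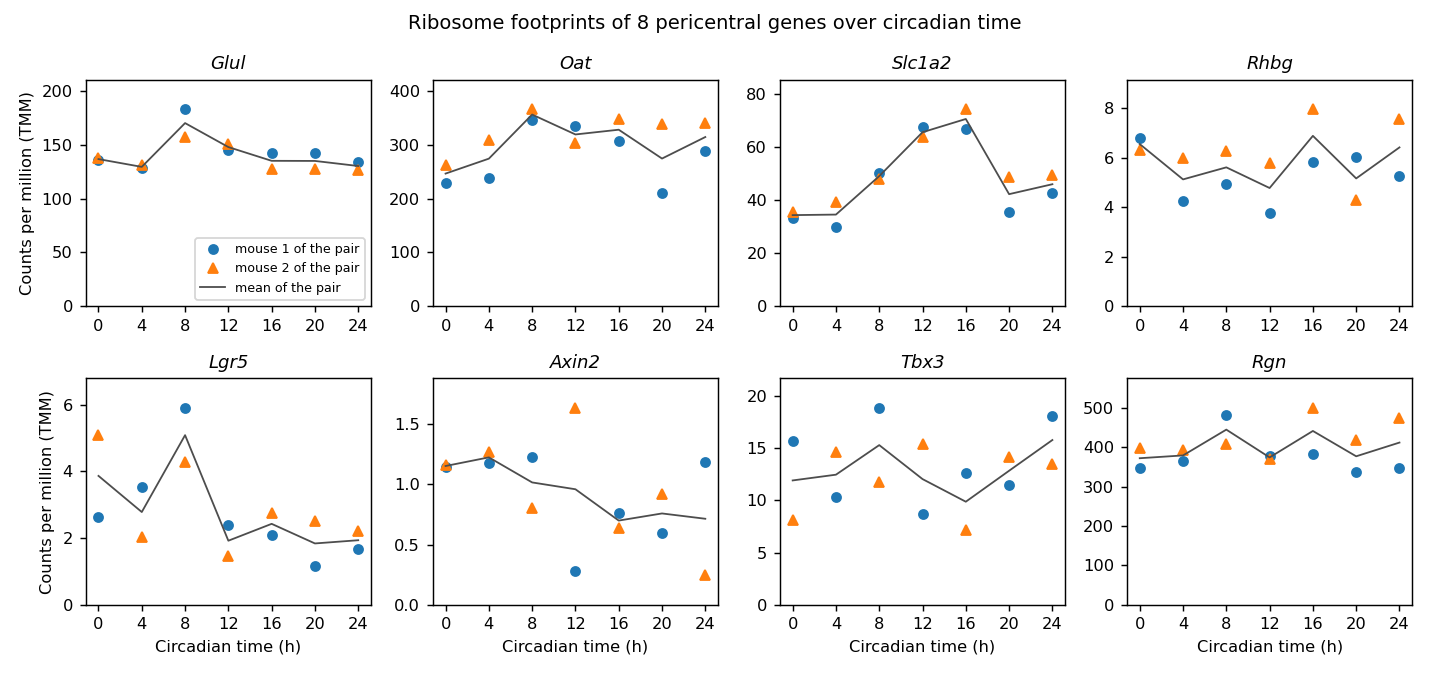
Footprints of the 8 genes by circadian time in h, as TMM CPM on linear axes that start at 0; circles and triangles are the 2 mice of each time and the line is their mean. In Slc1a2 the pairs at CT12 and CT16 lie above all other libraries, while in Tbx3 and Axin2 the mice of one time differ as much as the times do.

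Slc1a2, the glutamate importer, was highest from CT12 to CT16 on the TMM scale. For its transcript with the most reads, the libraries had 33.3 and 35.3 TMM CPM at CT0, 29.8 and 39.3 at CT4, 50.3 and 47.8 at CT8, 67.4 and 63.8 at CT12, 67.0 and 74.3 at CT16, 35.6 and 48.9 at CT20, and 42.7 and 49.3 at CT24. The 4 libraries of CT12 and CT16 lay above the other 10, whose highest value was 50.3 TMM CPM. The mean rose 2.06-fold from CT0, with 34.3 TMM CPM, to CT16, with 70.6 TMM CPM, and the mice of one time differed by at most 1.37-fold. The fitted cosine of Slc1a2 peaked at 14.1 h ± 0.74 (SE) with a log2 peak-to-trough span of 0.94 and an edgeR adjusted p of 0.00155. Fitted to each series of 7 mice alone, the peak fell at 13.4 h and 14.6 h. The edgeR fit of 7 separate times, which takes in patterns that are no cosine, called 7.08% of all transcripts and again the 3 member transcripts of Slc1a2, with adjusted p from 0.00348 to 0.00390.

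The cosine call for Slc1a2 turned on the scaling of the libraries, and that of the 7-time fit did not. With the total count in place of TMM, the peak-to-trough span of Slc1a2 was 0.85 on the log2 scale with a peak at 16.1 h, and the edgeR adjusted p was 0.0971. The 7-time edgeR fit still called the 3 Slc1a2 transcripts on that scale, with adjusted p from 0.0418 to 0.0446, where it called 12.7% of all transcripts. On that scale the highest libraries were those of CT16, with 88.7 and 71.3 CPM, and the lowest were 28.9 CPM at CT20 and 32.8 and 34.0 CPM at CT4. The pair at CT12, with 60.4 and 47.0 CPM, did not stand apart on that scale, since both mice of CT24 and 1 each of CT0 and CT20 were above the lower of them. A ratio to another gene of the same library is free of any scaling. The CDS density of Slc1a2 over that of Glul was 0.172 and 0.185 at CT0, 0.190 and 0.212 at CT4, 0.207 and 0.226 at CT8, 0.316 and 0.306 at CT12, 0.328 and 0.391 at CT16, 0.170 and 0.270 at CT20, and 0.232 and 0.265 at CT24. In this ratio the 4 libraries of CT12 and CT16 were above the other 10. A cosine fitted to the log2 of this ratio peaked at 14.5 h with a peak-to-trough span of 0.77, while the ratios of Slc1a2 to Oat and to Rgn gave 0.73 with a peak at 15.2 h and 0.87 with a peak at 14.2 h.

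**Figure D3:**
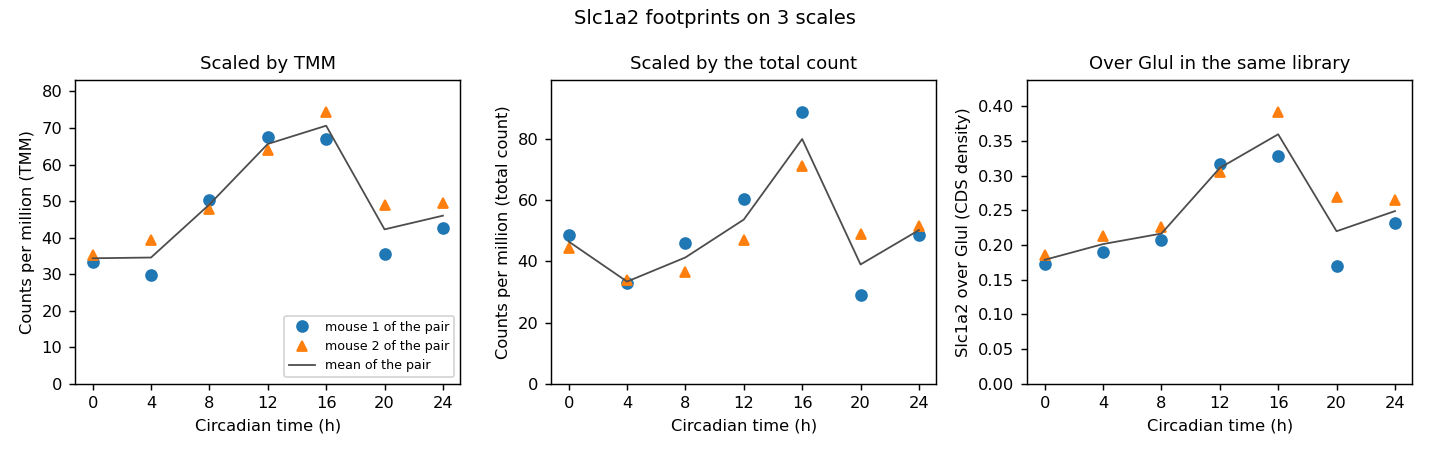
Slc1a2 by circadian time in h on 3 scales: TMM CPM, total-count CPM, and the CDS density of Slc1a2 over that of Glul in the same library; circles and triangles are the 2 mice of each time and the line is their mean. The mean is highest at CT16 on all 3 scales, at 70.6 TMM CPM on the first.

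The sums of the markers of other liver cells were not level over the day, although few single markers were called. The summed endothelial, Kupffer, stellate and cholangiocyte lists were each highest at CT0 and lowest at CT16, by 1.36-fold, 1.33-fold, 1.54-fold and 1.83-fold, whereas the hepatocyte list was lowest at CT4 and highest at CT24, by 1.27-fold. These sums had no test of their own. In the endothelial and Kupffer lists the CT16 libraries lay below those of CT12 but overlapped those of CT20. The Kupffer list had 135 and 174 TMM CPM at CT16 and 143 and 176 TMM CPM at CT20. The stellate list had 131 and 135 TMM CPM at CT16, below 161 and 174 at CT12 and 140 and 162 at CT20. The cholangiocyte list had 12.8 and 13.7 TMM CPM at CT16, below 16.5 and 19.4 at CT12 and 17.2 and 18.8 at CT20. The edgeR cosine fit called 3 of 12 hepatocyte markers and at most 1 marker in each of the other 4 lists, against 11.2% of all genes. The part of these values in the Slc1a2 result was not tested. Without CT20 replicate 2, the library with pancreatic reads, the Slc1a2 cosine had an edgeR adjusted p of 0.00152, and without CT16 replicate 2 it had 0.00678.

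Slc1a2 transcripts start at 2 places in the genome, and their 5′UTRs differed in reads. The transcripts with a 5′UTR of 38 nt begin at chr2:102706438 (GRCm38, plus strand), and their 5′UTR held 517 reads over the 14 libraries, from 7 to 95 in each. The third transcript begins upstream at chr2:102658689 with a 5′UTR of 602 nt in the files and 596 nt in the annotation, and that stretch held 0 reads in all 14 libraries, which allows at most 0.00736% of the transcript's 40738 reads. Of 1294 transcripts with a 5′UTR of 500 nt or more and a mean of at least 10 CDS counts, 39 (3.01%) had no 5′UTR read. The starts differ in the bases around the ATG and in the first amino acids, and the 27 bases around each start codon are shown, with the ATG in capitals, to tell the forms apart.
Slc1a2, 38-nt 5′UTR: acagctgagagaATGgtcagtgccaac
Slc1a2, 602-nt 5′UTR: gttccccacgccATGgcatcaacagag

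The RefSeq promoter table (GRCm38) holds the 250 bases before and 50 after the start of 4 members, Glul, Oat, Slc1a2 and Axin2. Rhbg, Lgr5, Tbx3 and Rgn are not among its entries used here. Both strands were searched for CTTTGAA and CTTTGAT (the site of TCF/LEF factors, through which β-catenin acts), CACGTG (E-box, bound by CLOCK and BMAL1), TTATGNAA (D-box, bound by DBP and its kin) and TAGGTCA (bound by REV-ERB and ROR receptors). The Slc1a2 promoter, that of the start with reads, held CTTTGAT on the minus strand 207 bases before the start and TTATGNAA 158 bases before it. The Glul promoter held TAGGTCA 58 bases before the start. No other match lay in the 4 windows, and CTTTGAA (5.14% of 32851 promoters) and CACGTG (7.15%) had none. Among the same 32851 promoters, 3.73% held CTTTGAT, 3.38% held TTATGNAA and 2.61% held TAGGTCA. The matches do not overlap one another and are shown for Slc1a2, the gene that was called, and for Glul, the other member with a match, with the matched bases in capitals on the gene's strand.
Slc1a2, TCF/LEF match, chr2:102706221-102706247: gaagagggacATCAAAGgccccaaatg
Slc1a2, D-box match, chr2:102706270-102706297: ttcctgtaagTTATGCAAtgtacaaaca
Glul, REV-ERB/ROR match, chr1:153899861-153899887: tttcctggccTAGGTCAgccaatcaag

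Glul, glutamine synthetase (chr1:153899929-153909723, plus strand), was among the steadiest of the 8 genes. Its libraries had 136 and 138 TMM CPM at CT0, 128 and 131 at CT4, 183 and 158 at CT8, 146 and 151 at CT12, 143 and 128 at CT16, 143 and 128 at CT20, and 134 and 127 at CT24. Both mice of CT8 were above the other 12 libraries, and those 12 lay between 127 and 151 TMM CPM. The cosine of Glul peaked at 9.52 h with a log2 peak-to-trough span of 0.27, and its edgeR adjusted p was 0.246. Without CT8 replicate 1 the log2 span of Glul was 0.17. With total-count scaling the fitted peak of Glul moved to 23.2 h, with an adjusted p of 0.761, so no direction over the day is given for this gene.

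Oat, ornithine aminotransferase (chr7:132557475-132576398, minus strand), ranged from 210 TMM CPM in CT20 replicate 1 to 366 TMM CPM in CT8 replicate 2, with a median of 309. Its pairs were apart by up to 1.61-fold, at CT20. The cosine of Oat had a log2 peak-to-trough span of 0.32 and an edgeR adjusted p of 0.347, and the span was 0.20 with total-count scaling. Oat was the member whose level went most closely with those of Rgn and Slc1a2 over the 14 libraries, with Pearson r of 0.74 and 0.72 of the log2 TMM CPM, as a description of libraries that share their depth and scaling.

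Rgn, regucalcin (chrX:20549818-20562087, plus strand), had the most reads, from 14074 to 38463 per library. It stayed between 336 and 500 TMM CPM, with a median of 388. Its cosine had a log2 peak-to-trough span of 0.11 and an edgeR adjusted p of 0.866 with TMM, against a span of 0.38 with a peak at 21.7 h and an edgeR adjusted p of 0.480 with total-count scaling. With 1 library left out the TMM span of Rgn ran from 0.066, without CT24 replicate 1, to 0.20, without CT24 replicate 2, and its fitted peak from 6.74 h to 16.1 h.

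Rhbg, the ammonium carrier (chr3:88242874-88254684, minus strand), gave a different answer on each scale. On the TMM scale it ranged from 3.75 to 7.97 TMM CPM with a median of 5.91, the means ran from 4.78 at CT12 to 6.89 at CT16, and the cosine had an edgeR adjusted p of 0.723 with a log2 span of 0.26, or 0.41 without CT20 replicate 2. On the total-count scale the means ran from 3.82 CPM at CT12 to 8.93 at CT0, a 2.34-fold span, with a cosine peak-to-trough span of 0.78 and an edgeR adjusted p of 0.166. The 7-time edgeR fit on that scale, which called 12.7% of all transcripts, called Rhbg, with an adjusted p of 0.0222, against 0.718 with TMM.

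Of the members Lgr5, Axin2 and Tbx3, Lgr5 (chr10:115450314-115587780, minus strand) had the largest fitted span. Its libraries had 2.63 and 5.10 TMM CPM at CT0, 3.53 and 2.03 at CT4, 5.90 and 4.27 at CT8, 2.38 and 1.46 at CT12, 2.11 and 2.75 at CT16, 1.17 and 2.51 at CT20, and 1.67 and 2.20 at CT24. The 8 libraries from CT12 to CT24 lay between 1.17 and 2.75 TMM CPM, and both mice of CT8 were above them, while those of CT0 and CT4 lay on both sides of that upper value. The cosine peaked at 6.11 h with a log2 peak-to-trough span of 1.02 and an edgeR adjusted p of 0.240. The 7-time edgeR fit gave Lgr5 an adjusted p of 0.0971, which misses the threshold, as it did with DESeq2 size factors and upper quartile scaling. Lgr5 passed the threshold with total-count scaling (edgeR, 0.0301), where 12.7% of all transcripts were called. It also passed with the DESeq2 test (0.0111), for which the share of all transcripts was not counted. Without CT8 replicate 1 the cosine span of Lgr5 fell to 0.71 on the log2 scale. Counts of Lgr5 were low, from 49 to 472 per library.

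Axin2 (chr11:108920349-108950783, plus strand) had only 14 to 98 reads per library, or 0.246 to 1.63 TMM CPM. Its mice of one time differed by up to 5.76-fold, at CT12, more than the 1.75-fold between the highest mean, at CT4, and the lowest, at CT16. Its cosine had a log2 peak-to-trough span of 0.71 and an edgeR adjusted p of 0.670. Tbx3 (chr5:119670862-119684724, plus strand) ranged from 7.13 to 18.9 TMM CPM in its transcript with the most reads, with a median of 13.0. Its mice of one time differed by up to 1.93-fold, and its cosine had a peak-to-trough span of 0.39 and an edgeR adjusted p of 0.645. That log2 span of Tbx3 was 0.17 without CT16 replicate 2, 0.55 without CT4 replicate 1 and 0.62 with total-count scaling, and none of these fits called it.

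CT24 is the same clock time as CT0, one day later. The edgeR contrast of CT24 minus CT0 called 0 of 17299 transcripts (0%) and 0 of the 11 member transcripts. DESeq2 called 2 transcripts and 0 members. Of the 17299, 873 had an unadjusted edgeR p under 0.05, about the share that this threshold passes with no effect. Among them were 4 member transcripts, Lgr5 and those of Slc1a2, which share nearly all their reads. Slc1a2 was higher at CT24 by 0.42 on the log2 scale and Lgr5 was lower, with a log2 difference of -0.995, both with an edgeR adjusted p of 0.957. In Slc1a2 both mice of CT24 (42.7 and 49.3 TMM CPM) were above both of CT0 (33.3 and 35.3 TMM CPM), and without the CT24 pair the Slc1a2 cosine was 1.14 on the log2 scale.

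The rank-based test JTK_CYCLE called different members on the 2 scales. On total-count CPM it called 17.6% of all transcripts at its adjusted P under 0.05 and 1 of 11 member transcripts, which was Rhbg, with an exact adjusted P of 0.0471 and a peak at 0 h. On TMM CPM it called 16.7% of all transcripts and 3 of 11 member transcripts, those of Slc1a2, with exact adjusted P from 0.00217 to 0.00411 and a peak at 14 h. After Benjamini-Hochberg adjustment over all 17299 transcripts, no member was called on either scale. The JTK_CYCLE q was 0.266 for Rhbg on total-count CPM and 0.0511 to 0.0726 for Slc1a2 on TMM CPM. How many of all transcripts stayed called after this adjustment was not counted.

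The share of footprints that lay in the 5′UTR differed widely between the genes. The median share over 16838 transcripts with a 5′UTR was 3.83%, with quartiles of 0.584% and 10.9%. Tbx3 stood highest, with 21.7% of its reads over the 14 libraries in a 5′UTR of 980 nt and 20.0% in one of 783 nt, and no library had under 13.3%. Lgr5 had 11%, Glul 9.56%, Oat 5.35%, Axin2 2.18%, Rgn 1.71%, and the Slc1a2 transcripts with a 38-nt 5′UTR 1.25% and 1.24%. Rhbg had 0 reads in its 5′UTR of 38 nt in all 14 libraries, which allows at most 0.0628% of its 4776 reads. Among 2040 transcripts with a 5′UTR of 20 to 60 nt, 682 (33.4%) had no 5′UTR read. The Axin2 share rests on 17 reads, with 8 libraries at 0, and is 1.32% without CT8 replicate 1, which holds 8 of them. The 3′UTRs of the members held from 0.0462% to 0.400% of their reads, against a median of 0.187% over the same transcripts.

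**Figure D4:**
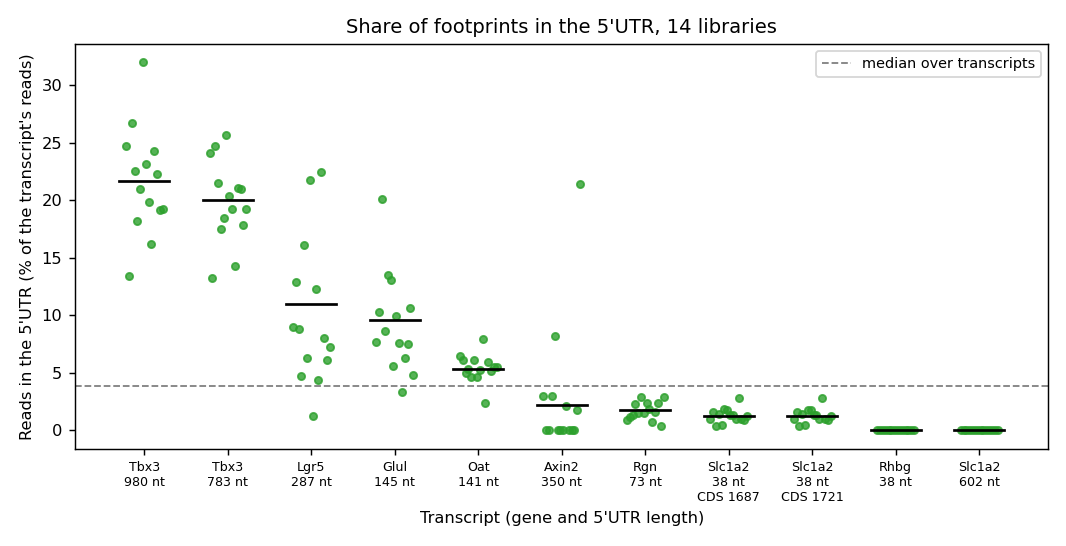
Reads in the 5′UTR as percent of all reads of each of the 11 member transcripts, labelled by gene and 5′UTR length; each point is 1 of 14 libraries, each bar the share over all libraries and the dashed line the median of 3.83% over 16838 transcripts. Tbx3 lies above the line in every library, and Rhbg and the Slc1a2 transcript with a 602-nt 5′UTR lie at 0.

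Per nucleotide, Lgr5 had 1.19 times as many reads in its 5′UTR as in its CDS, against a median ratio of 0.346 over all transcripts. The ratio was 0.825 for Glul, 0.714 and 0.614 for Tbx3, 0.564 and 0.572 for the Slc1a2 transcripts with reads there, 0.534 for Oat, 0.217 for Rgn and 0.161 for Axin2, the last being 0.0969 without CT8 replicate 1. The longer 5′UTR of Tbx3 adds an exon of 196 nt upstream, and 216 reads fell in what it adds. The 5′UTR share of Glul ran from 3.31% of its reads in CT16 replicate 2 to 20.1% in CT4 replicate 1.

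Upstream open reading frames (uORFs), short frames that both open with ATG and close before the main start, were read from the genome for each member. Glul has 1, Axin2 has 2, Tbx3 has 2 in its shorter and 3 in its longer 5′UTR, and the Slc1a2 transcript without 5′UTR reads has 1. Oat, Rgn, Rhbg and the other Slc1a2 transcripts have none. Lgr5 has an ATG 271 nt before its main start with no stop codon inside the 5′UTR. The uORFs of at most 30 nt are shown as examples of what these 5′UTRs encode, the first ending 93 nt before the Glul start codon, the second 83 nt before that of Tbx3 and the third 108 nt before that of Axin2.
Glul uORF: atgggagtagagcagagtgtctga
Tbx3 uORF: atgcgtcgctgttga
Axin2 uORF: atgagcccctgctga

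The counts do not resolve positions, so reads on a uORF cannot be told apart from reads elsewhere in the 5′UTR. With limma, 7640 transcripts, 8 of them members, were tested for a 24-h cosine in their 5′UTR reads relative to CDS reads (log2). It called 0 transcripts (0%). Of the 7640, 377 had an unadjusted limma p under 0.05, about the share that this threshold passes with no effect. Glul was 1 of them and the only member. The Glul ratio had a fitted peak-to-trough span of 1.50 on the log2 scale, with a peak at 5.65 h and a limma adjusted p of 0.809.

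The genes most like each member were taken by Pearson r of log2(TMM CPM + 1) over the 14 libraries among 8165 other genes, as a description with no test. The Slc1a2 transcript with the most reads went most closely with Rmc1 (r = 0.95, Spearman rho = 0.996), Cyp2e1 (r = 0.93, rho = 0.94) and Ddx3x (r = 0.93, rho = 0.92). Cyp2e1, the ethanol-oxidizing cytochrome P450, is itself a classic pericentral gene. Its cosine peaked at 14.1 h with a log2 peak-to-trough span of 0.89 and an edgeR adjusted p of 0.00260. Slc1a2 had 14.1 h and 0.94, but Cyp2e1 was picked for its likeness in these same libraries. A near peak and span therefore follow from that choice and are no separate result. For Glul the closest were Trim8 (r = 0.90), Oaf (0.88) and Bcar1 (0.87), and for Oat they were Gin1 (0.88), Ppp1cb (0.88) and Usp47 (0.87). Rgn had Rtn4 (r = 0.88), Nr2c1 (0.87) and Ttc37 (0.79), and Rhbg had Tsr3 (0.80), Grk2 (0.79) and Slc13a3 (0.78), of which Slc13a3 is on the list of other pericentral genes. Lgr5 had Taok3 (r = 0.88), Foxq1 (0.85) and Nr5a2 (0.80), and Tbx3 had Nfe2l1 (0.80), Sf3a2 (0.79) and Marchf8 (0.73). No member was among the 3 closest genes of another.

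Other genes of the same zone and pathways were read from 4 lists, with 1 transcript per gene, beside all 11736 genes, of which 11.2% were called with a median peak-to-trough span of 0.44 on the log2 scale. Of 35 other pericentral genes, all tested, 12 were called (34.3%), with a median span of 0.50. Their mean counts ran from 82 (Slc22a3) to 174544 (Cyp2e1), whereas the background takes in all genes with a mean of at least 10. The part of depth in this and the other list shares was not tested. The 4 largest of these were Cyp7a1, the rate-limiting enzyme of bile acid synthesis (2.74, peak at 15.4 h, edgeR adjusted p of 5.76e-05), Por, the electron donor of microsomal P450 enzymes (2.18, 14.8 h, 4.17e-07), Cyp2a5, a P450 that oxidizes coumarin (2.16, 15.1 h, 2.52e-05), and Avpr1a, a vasopressin receptor (1.92, 0.34 h, 1.23e-05). Of the 12 called, 4 peaked between 11 h and 17 h as Slc1a2 did, which is 33.3% against 31.5% of all 1320 genes called, 44.4% of the called periportal genes and 42.9% of the called glutamine and ammonium genes described next. These 4 were Cyp2e1, Cyp7a1, Cyp2a5 and Por, and the other 8 peaked at other hours.

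**Figure D5:**
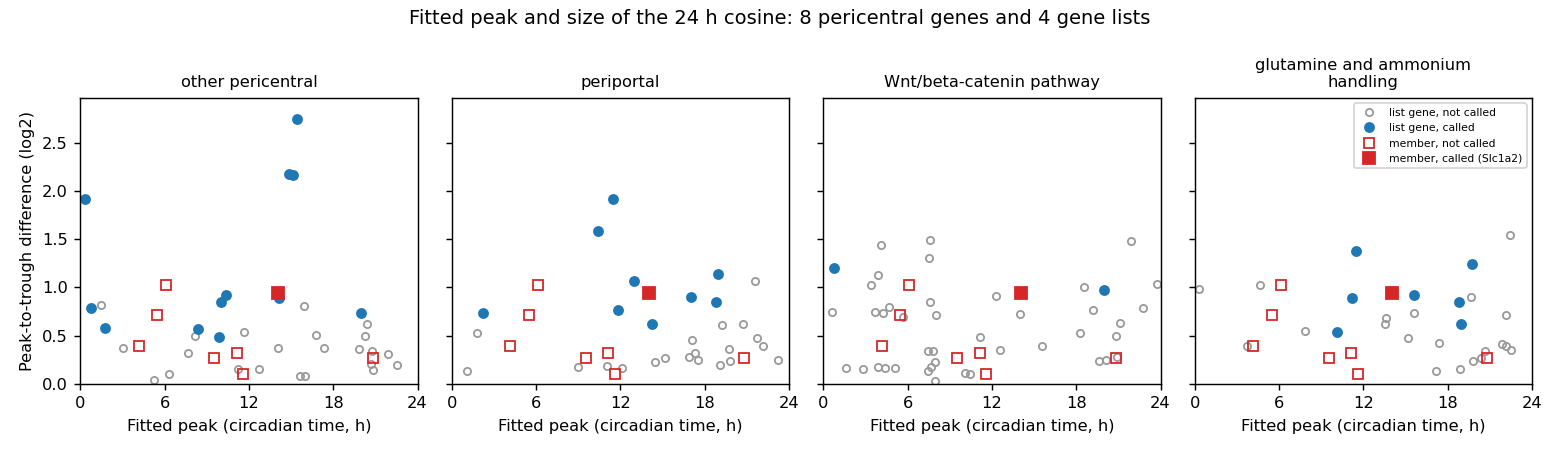
Fitted peak in h of circadian time against the peak-to-trough span of the cosine (log2) for the genes of 4 lists, filled where called by edgeR, with the 8 members as squares in every panel. Slc1a2 is the filled square, at 14.1 h and 0.94, beside Cyp2e1 in the first panel, and the other 7 members are open.

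Of 29 periportal genes 9 were called (31%), with a median span of 0.46 on the log2 scale. The largest were Pck1, which commits carbon to glucose synthesis (1.92, peak at 11.5 h, edgeR adjusted p of 3.16e-06), the arginine transporter Slc7a2 (1.58, 10.4 h, 3.20e-05), the urea cycle enzyme Asl (1.14, 19 h, 3.20e-05) and serine dehydratase Sds (1.07, 13.0 h, 0.00884). Whether the shares of both zones differ was not tested.

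Of 35 genes that handle glutamine, glutamate, ornithine and ammonium, 27 were tested and 7 were called (25.9%), with a median span of 0.62 on the log2 scale. The largest 4 were the amino acid transporter Slc38a2 (1.37, peak at 11.4 h, edgeR adjusted p of 1.95e-05), the polyamine enzyme Odc1 (1.24, 19.8 h, 0.00688), the alanine aminotransferase Gpt2 (0.92, 15.6 h, 6.52e-04) and the glutamine transporter Slc38a3 (0.89, 11.2 h, 1.99e-05). The glutamate transporters Slc1a1 and Slc1a3 and the ammonium carriers Rhag and Rhcg, relatives of Slc1a2 and Rhbg, were among the 8 with too few reads to be tested, and are named here after their values were seen. Slc1a2, with a peak at 14.1 h, fell between the peaks of Slc38a3 and Gpt2.

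Of 57 genes of the Wnt/β-catenin pathway 43 were tested and 2 were called (4.65%), Lrp5 and Dvl2, with a median span of 0.63 on the log2 scale. Lrp5, a Wnt coreceptor, had a span of 1.20 with a peak at 0.75 h and an edgeR adjusted p of 4.17e-05. Dvl2, which relays the signal inside the cell, had 0.98 with a peak at 20.0 h and an edgeR adjusted p of 0.0414, which became 0.0689 without CT20 replicate 2. With total-count scaling 7 of 35 pericentral, 9 of 29 periportal, 3 of 27 glutamine and ammonium and 2 of 43 Wnt genes were called, against 8.32% of all genes, and 4 of the genes named above, like Slc1a2, were not. Their edgeR adjusted p was then 0.0931 for Cyp2e1, 0.171 for Sds, 0.0822 for Gpt2 and 0.318 for Slc38a3, whose log2 span was then 0.44. Without CT20 replicate 2 the counts were 11, 9, 7 and 1, against 10.7% of all genes.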

How the data were processed

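The authors deposited, for each of 14 libraries, raw read counts per RefSeq transcript, split by region (5′UTR, CDS and 3′UTR) and given with region lengths; they aligned reads to mm10, with Bowtie2 2.1.0.0 and SAMtools 0.1.19.0 in their processing notes. How a read shared by transcripts was counted is not given in the sources used here. A further sequencing run of CT16 replicate 2 is in the labels, with no separate file used here. The members and lists were chosen with earlier results of these data known.

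Counts of the 3 regions were summed and fitted with edgeR 4.0.16 in R 4.3.3 (TMM, quasi-likelihood), with DESeq2 1.42.0 as an alternative. JTK_CYCLE was rewritten in Python 3.11.15 (lags every 2 h, times of equal cosine height treated as ties, so its P can differ from the original program's). The 5′UTR counts relative to CDS counts (log2, pseudocount 0.5, mean of at least 10 in each region) were tested with limma 3.58.1. Each test was checked on simulated data. RefSeq named 27840 of 28167 transcripts, and GENCODE raised this to 27956. 5′UTR and CDS lengths in the files exceed the annotation by up to 1 nt per exon, and by 6 nt in the upstream Slc1a2 5′UTR. All transcripts of the members are named, with the 3 genes most like each one of at least 100 counts and up to 4 called genes per list. Alternatives were other scalings, filters, regions and tests, each library left out and a replicate block. Limits for 0 reads are 3 reads of the total and cover counting error only; with 2 mice per time, an SD rests on few values.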

Additional observations from a re-analysis of the deposited data

How the results depend on the processing

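The Slc1a2 transcript with the most reads was called rhythmic by a cosine fit in 25 of 26 alternatives, 1 of which was DESeq2's likelihood ratio test and the others edgeR fits, with total-count scaling the exception, and the other 7 members in none. That scaling gave 0 member transcripts and 0 member genes in the cosine fit, which called 8.25% of all transcripts (1427), and 5 in the 7-time fit (Slc1a2, Lgr5, Rhbg), which called 12.7% (2197). With 1 transcript per gene, 1 member transcript was called in each of the 2 fits, among 1250 transcripts in the cosine fit, since fewer transcripts were tested. JTK_CYCLE called 3 member transcripts with TMM, where it called 16.7% of all transcripts. It called 0 with CDS counts, 0 after Benjamini-Hochberg adjustment, and 0 to 3 with a library left out. The shares of all transcripts in these last settings were not counted, so a fall of the members cannot be set against them. Apart from the scaling the cause was not tested. Leaving out a library gave 3 member transcripts in every cosine fit, among 1499 to 2062 of all transcripts called by it, and 0 for the 5′UTR ratio. The 7-time fit and its CT24 contrast then rest on 1 mouse at a time, and their counts are left out. With the replicate number as a block, 3 member and 1916 of all transcripts were called and no member call changed. Deviations of the same number correlated between times with r from -0.15 to 0.34. The median r was 0.040, and 5 of 21 pairs of times were above 0.1. These values do not settle whether the numbers pair the mice. Ratios to Glul and the list counts under other settings were added after seeing the data. The counts of Axin2 (14 to 98 per library) and Lgr5 (49 to 472) were the lowest of the members, and the part of depth in their values was not tested.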
